A study of Mus musculus with 1 sample.

Results

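The 10 genes described here encode receptors by which blood cells sense attractants, namely *Cxcr2*, *Cxcr3*, *Cxcr4*, *Ccr1*, *Ccr2*, *Cx3cr1*, *Fpr1*, *Fpr2*, *C5ar1* and *Ltb4r1*. They were chosen by name as receptors of marrow retention, egress and chemotaxis, and each symbol was matched to 1 Ensembl identifier among the 54532 genes of the table through GENCODE M21. The study set c-kit+ BM cells of *Gadd45g*-deficient mice with MPN, a myeloproliferative neoplasm, against those of Ctrl mice. Only the Ctrl library is analysed here. It comes from bone marrow of C57BL/6 mice with the wild-type genotype, sorted by the labels for cells without lineage markers, with c-kit and without Sca-1. For RNA sequencing the study names the sorted cells only as c-kit+ BM cells. The age and number of these mice, and whether their cells were pooled, are not given in the sources used here. With 1 library there are no replicates, so the levels below are a description of that library, with no test, no fold change with disease and no spread between mice.

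Receptors of this class cross the cell membrane with several helices and pass their signal on through heterotrimeric G proteins, mostly of the Gi type, to the actin machinery that drives cell movement. In bone marrow, CXCR4 binds CXCL12 made by stromal cells and holds stem cells, progenitors and maturing neutrophils in place, whereas CXCR2 answers to the CXC chemokines that draw neutrophils into the blood. CCR2 is needed for monocytes to leave the marrow. Formyl peptides of bacteria, the complement fragment C5a and the lipid leukotriene B4 act on FPR1 and FPR2, C5AR1 and LTB4R1, the classical chemoattractant receptors of granulocytes and monocytes.

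The promoters of the receptors differ in base composition, and those of the 4 genes above 100 FPKM and of the lowest gene are printed for that reason. FPKM is the number of fragments on a gene scaled by its length and by the library total. Each sequence is the 250 bases before the start site in RefSeq on GRCm38.p6, read 5′ to 3′ on the strand of the gene. The GENCODE genes used for the levels can start further upstream. The windows of *Cxcr3*, *C5ar1* and *Ccr2* lie partly inside them, that of *Cx3cr1* wholly, and those of *Cxcr2* and *Fpr1* by a few bases at most. Capitals mark matches, on either strand, to one of the motifs for PU.1 and ETS factors, RUNX, GATA, C/EBP and the TATA box whose letters are given after the sequences.
*Cxcr4*, chr1:128592300-128592549, reverse strand: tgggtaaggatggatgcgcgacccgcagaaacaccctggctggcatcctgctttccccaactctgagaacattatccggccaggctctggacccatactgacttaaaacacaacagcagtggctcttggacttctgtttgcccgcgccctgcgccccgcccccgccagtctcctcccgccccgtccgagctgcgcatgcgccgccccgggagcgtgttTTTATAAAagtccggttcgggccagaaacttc
*Fpr2*, chr17:17887574-17887823, forward strand: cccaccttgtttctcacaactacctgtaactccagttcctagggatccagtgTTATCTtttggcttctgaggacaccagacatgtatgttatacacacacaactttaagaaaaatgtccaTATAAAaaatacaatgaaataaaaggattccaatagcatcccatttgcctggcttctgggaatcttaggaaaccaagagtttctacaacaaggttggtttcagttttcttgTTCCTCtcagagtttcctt
*Cxcr2*, chr1:74153744-74153993, forward strand: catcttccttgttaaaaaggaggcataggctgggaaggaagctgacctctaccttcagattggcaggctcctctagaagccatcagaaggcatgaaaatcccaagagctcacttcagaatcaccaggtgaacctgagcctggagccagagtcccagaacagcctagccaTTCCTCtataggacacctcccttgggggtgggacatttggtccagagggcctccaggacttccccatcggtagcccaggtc
*Ltb4r1*, chr14:55765712-55765961, forward strand: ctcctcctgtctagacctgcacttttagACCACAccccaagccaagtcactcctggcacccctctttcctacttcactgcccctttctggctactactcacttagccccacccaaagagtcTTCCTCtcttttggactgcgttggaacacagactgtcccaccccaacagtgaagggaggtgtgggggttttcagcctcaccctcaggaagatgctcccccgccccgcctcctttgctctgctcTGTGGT
*Cxcr3*, chrX:101734148-101734397, reverse strand: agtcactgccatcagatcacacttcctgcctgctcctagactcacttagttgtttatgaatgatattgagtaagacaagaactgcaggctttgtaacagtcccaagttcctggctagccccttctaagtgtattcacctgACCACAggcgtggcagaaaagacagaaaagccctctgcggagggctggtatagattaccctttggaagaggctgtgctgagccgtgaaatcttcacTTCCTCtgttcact

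The *Cxcr4* window stood apart in its CpG dinucleotides, of which it held 19, with an observed over expected ratio of 0.838. The other 9 windows held 0 to 4, and the median over 32817 promoter windows was 6. Windows with at least 19 CpG made up 19.7% of all, so the count at *Cxcr4* is common among promoters at large. Windows with 1 or fewer made up 18.8% of all, and among the receptors *Fpr2*, *Cxcr2*, *Fpr1*, *Ccr1* and *Ccr2* were of this kind. The core motif of PU.1 and other ETS factors, searched as GAGGAA, was found in 5 of the 10 windows, against 23.3% of all promoters. The RUNX motif, searched as TGTGGT, was also found in 5, against 14.0% of all promoters. The letters of the TATA box, TATAAA, were in 3 windows, those of *Cxcr4*, *Fpr1* and *Fpr2*, against 12.4% of all. In *Cxcr4* they matched on both strands at overlapping positions. The motif of GATA factors, searched as AGATAA, was in 2 windows, against 9.99% of all. No window held the letters TTGCNNAA searched for C/EBP, which 9.57% of all promoters do. A match is a run of letters in a short window and was not tied to binding or to the level of the gene.

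**Figure D1:**
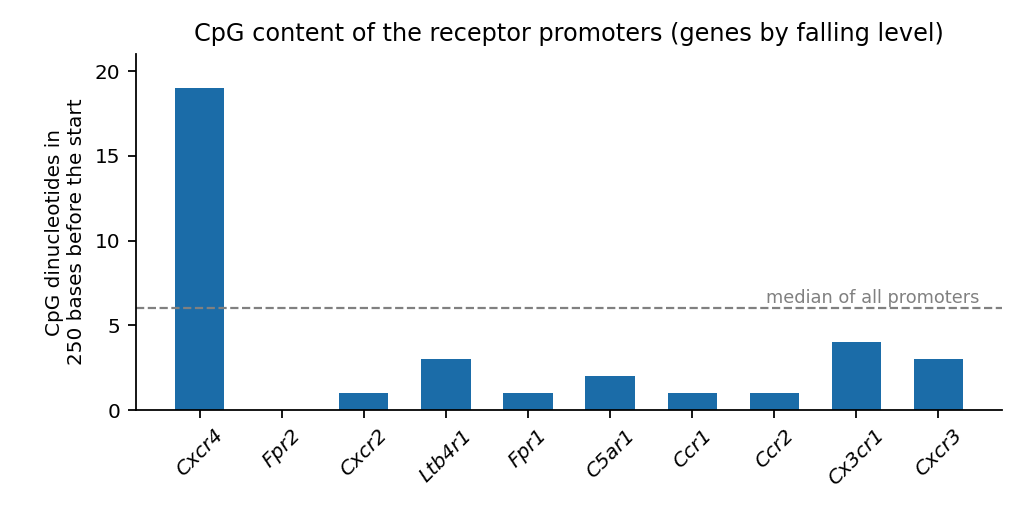
CpG dinucleotides in the 250 bases before the start site of each receptor gene (bars, a count), ordered from the highest to the lowest mRNA level; the dashed line is the median of all promoters, 6. *Cxcr4*, with 19, is the only bar above the line, and the others reach 4 at most.

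All 10 receptor genes were detected at 1 FPKM or more. This level was reached by 22.2% of all genes of the table and by 46.8% of the 21995 protein-coding genes. The same shares are the scale for each count of detected genes below. The median of the 10 receptor genes was 53.6 FPKM, beside 4.22 FPKM over protein-coding genes above 0. At 10 FPKM or more there were 9 of them, a level that 21.2% of protein-coding genes reached, and at 100 FPKM or more 4 of them, against 2.06% of protein-coding genes. The 10 genes were picked with earlier results of these data known, so these shares give scale and no test. Values times exon length were whole multiples of 1 common step for each of the 10, so the fragments behind every level could be recovered. They add up to 25165 fragments, or 0.158% of the 15899824 recovered from genes whose multiple was whole. The intervals given are 95% Wilson intervals on these fragments. They cover the counting error of fragments only. PCR copies of 1 molecule count as several fragments, so the error in molecules can be larger.

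*Kit*, the gene of the sorting antigen, had 7.17 FPKM, and 9 of the 10 receptors lay above it. With the longest transcript of each gene as its length, a choice made after seeing the data, *Kit* had 12.2 FPKM and 9 receptors again lay above it. Genes that mark mature cells were present as well, although the labels name cells without lineage markers. The neutrophil marker *S100a9* and the erythroid marker *Hba-a1* were the 2 highest genes of the table, and 6355 genes were at or above *Kit*. All 9 neutrophil, 6 B cell and 6 erythroid markers lay above *Kit*, but only 1 of the 6 T and NK cell markers. The receptor levels are those of the whole library and cannot be read as levels of progenitors alone. All 9 mature neutrophil markers were detected, from 123 to 26677 FPKM. The 6 monocyte markers ran from 6.29 to 289 FPKM, the 6 macrophage markers from 7.37 to 50.3 FPKM, the 6 B cell markers from 17.1 to 2005 FPKM and the 6 T and NK cell markers from 1.82 to 70.6 FPKM. The 5 dendritic cell markers ran from 4.80 to 227 FPKM and the 7 basophil, mast cell and eosinophil markers from 4.62 to 2766 FPKM. The 6 erythroid markers ran from 471 to 25466 FPKM, and 4 of 5 megakaryocyte markers were detected, *Gp1bb* being listed at 0. The 6 progenitor markers were split. *Cd34*, *Gata2* and *Kit* had 5.22, 6.82 and 7.17 FPKM, while *Ctsg*, *Prtn3* and *Mpo* had 241, 379 and 434 FPKM. Which cells carried the receptor mRNAs was not tested, since in a bulk library fewer cells of a type and less RNA per cell cannot be told apart.

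**Figure D2:**
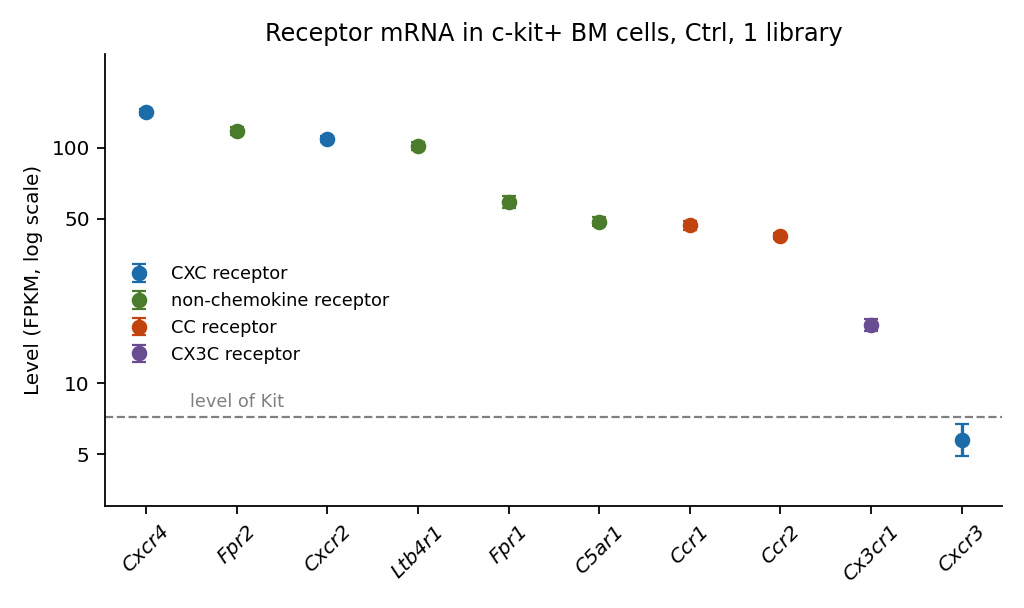
Level of each receptor gene in FPKM on a log axis, 1 library; bars are 95% Wilson intervals of counting error, often smaller than the point, and the dashed line is the level of *Kit*, 7.17 FPKM. A group of 4 genes lies between 102 and 142 FPKM, the next 4 between 42.2 and 58.8 FPKM, and only *Cxcr3* lies below *Kit*.

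The retention receptor *Cxcr4* (ENSMUSG00000045382) was the most abundant of the 10, at 142 FPKM from 4052 fragments (interval, 138 to 146 FPKM). It lies on the reverse strand at chr1:128588199-128592293, with 1808 bases of exon. In the library 311 protein-coding genes, or 1.41%, were as high or higher. CXCL12, the ligand of CXCR4, is also bound by the atypical receptor ACKR3, whose gene had 0.0568 FPKM from 3 fragments. *Cxcl12* itself had 6.57 FPKM from 848 fragments, so the receptor was 21.6 times its ligand gene (95% interval of the ratio from an exact binomial split of the fragments, 20.1 to 23.3). The size of this gap rests on the length assigned to *Cxcl12*: with the longest transcripts as lengths the ratio was 14.9, and in fragments not divided by length 4.78. *Mif*, whose product is a further ligand of CXCR4, had 83.5 FPKM.

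Proteases that neutrophils and other cells direct at chemokines, CXCL12 among them, were abundant. *Elane*, the gene of neutrophil elastase, had 781 FPKM, *Mmp9*, a matrix metalloproteinase, 561 FPKM and *Ctsg*, encoding cathepsin G, 241 FPKM. *Dpp4*, whose product trims the end of CXCL12 that is needed for signaling, had 6.73 FPKM. Of the 6 protease genes listed, 4 were detected. The genes of carboxypeptidase N were at or near 0, *Cpn1* at 0.0172 FPKM from 1 fragment and *Cpn2* listed at 0, which allows up to 0.0418 FPKM.

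*Cxcr2* (ENSMUSG00000026180), the receptor linked to neutrophil egress, had 109 FPKM from 5244 fragments (interval, 106 to 112 FPKM). Those were the most fragments of any of the 10. The gene lies on the forward strand at chr1:74153989-74161246 and has 3048 bases of exon. Its level was 0.768 of that of *Cxcr4* (interval, 0.737 to 0.800). The order of the pair depended on length: without division by exon length *Cxcr2* had 1.29 times the fragments of *Cxcr4*. A neighboring paralog, *Cxcr1*, starts 40.6 kb away and had 1.95 FPKM from 46 fragments, so *Cxcr2* was 55.8 times as high (interval, 41.7 to 76.3).

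Among the ligands of CXCR2, *Cxcl2* had 111.6 FPKM, and the ratio of receptor to ligand, 0.976, has an interval that holds 1 (0.936 to 1.02). With the longest transcripts as lengths this ratio was again 0.976, but in fragments not divided by length 1.44. *Ppbp*, a platelet chemokine gene, had 38.7 FPKM. *Cxcl1*, *Cxcl3* and *Cxcl5*, further ligands of the receptor, had 0.0676, 0.163 and 0.0340 FPKM, from 2, 9 and 1 fragments. Over all 11 ligand genes listed for CXC receptors, 7 were detected, with a median of 2.22 FPKM.

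*Cxcr3* (ENSMUSG00000050232), best known from activated T cells and NK cells, was the lowest of the 10, at 5.71 FPKM from 156 fragments (interval, 4.88 to 6.68 FPKM). It lies on the reverse strand at chrX:101731535-101734269. *Cxcr4* was 24.9 times as high (interval, 21.2 to 29.4). The genes of the CXCR3 ligands, which interferon induces, were low as well, with *Cxcl10* at 2.22, *Cxcl9* at 1.41 and *Cxcl11* at 0.0334 FPKM. Of the 6 T and NK cell markers, the T cell genes *Cd3e*, *Cd3g*, *Cd4* and *Cd8a* had 2.62, 5.02, 5.25 and 3.85 FPKM, *Klrb1c*, a marker of NK cells, had 1.82 FPKM, and *Nkg7*, a gene of cytotoxic granules, had 70.6 FPKM. Their part in the *Cxcr3* level was not tested.

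The CC receptors *Ccr1* and *Ccr2*, which bind the inflammatory CC chemokines, had close levels. *Ccr1* (ENSMUSG00000025804), on the reverse strand at chr9:123962124-123968692, had 46.8 FPKM from 2094 fragments (interval, 44.9 to 48.9 FPKM). *Ccr2* (ENSMUSG00000049103), on the forward strand at chr9:124101950-124113557, had 42.2 FPKM from 4507 fragments (interval, 41.0 to 43.5 FPKM). The ratio of *Ccr2* to *Ccr1* was 0.902 with an interval of 0.856 to 0.950. This order rests on the length assigned to *Ccr2*, whose 4 annotated transcripts cover 6760 bases in all and of which the longest has 5728. With the longest transcript as the length, *Ccr2* had 49.9 FPKM and the ratio was 1.06. Which of the 2 genes was the more abundant per transcript therefore cannot be said from these values.

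*Ccr1* and *Ccr2* belong to a row of chemokine receptor genes on chromosome 9, whose members had very unequal levels. *Ccr1l1*, a close relative of *Ccr1* that starts 9.72 kb from it, had 0.163 FPKM from 3 fragments. *Ccr3*, the eotaxin receptor gene of eosinophils, starts 53.3 kb from *Ccr1* and had 13.2 FPKM from 681 fragments. Further off on the other side, *Xcr1*, *Cxcr6* and *Ccr9* had 0.142, 1.64 and 1.32 FPKM.

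**Figure D3:**
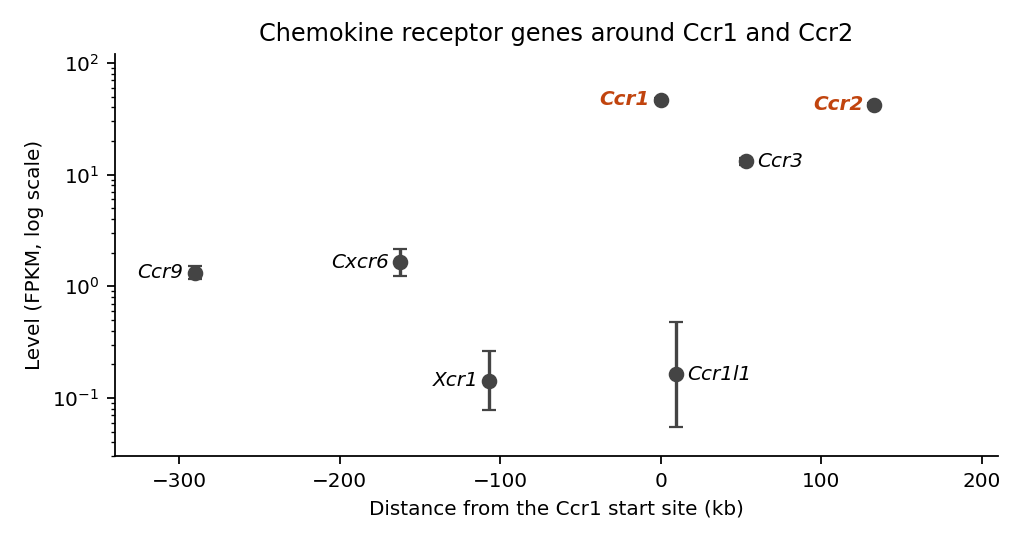
Level in FPKM (log axis) of the chemokine receptor genes around *Ccr1* and *Ccr2* against the distance of their start sites from that of *Ccr1* in kb, 1 library; bars are 95% Wilson intervals of counting error. *Ccr1* and *Ccr2* stand at 46.8 and 42.2 FPKM and *Ccr3* at 13.2 FPKM, while the other genes are at 1.64 FPKM or less.

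Several ligand genes of these receptors were expressed in the same library. *Ccl6* had 297 FPKM, *Ccl3* 64.7 FPKM, *Ccl9* 42.5 FPKM and *Ccl5* 42.2 FPKM, all encoding chemokines that CCR1 can bind. By contrast *Ccl2*, the main ligand of CCR2, had 1.50 FPKM from 27 fragments, so *Ccr2* was 28.1 times as high (interval, 19.3 to 42.7). With the longest transcripts as lengths this ratio was 31.9, and in fragments not divided by length 167. *Ccl7* and *Ccl12*, also CCR2 ligands, had 0.0791 and 0.236 FPKM, from 1 and 2 fragments. Of the 10 ligand genes listed for CC and CX3C receptors, 7 were detected, and their median was 15.3 FPKM.

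*Cx3cr1* (ENSMUSG00000052336), the fractalkine receptor of patrolling monocytes, macrophages and dendritic cell precursors, had 17.6 FPKM from 1255 fragments (interval, 16.7 to 18.7 FPKM). It was the ninth of the 10, and *Ccr2* was 2.39 times as high (interval, 2.25 to 2.55). The gene is annotated on the reverse strand at chr9:119901616-120069879, a span that includes other genes. Only 78 of its 4505 exon bases, or 1.73%, lie in an exon of another gene, the antisense transcript *Gm33858*, which had 0.494 FPKM. *Cx3cl1*, encoding its ligand fractalkine, had 0.0645 FPKM from 4 fragments.

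The formyl peptide receptors are neighbors, with start sites 3.88 kb apart, and are transcribed away from each other. *Fpr2* (ENSMUSG00000052270), on the forward strand at chr17:17887824-17893952, had 118 FPKM from 2419 fragments (interval, 114 to 123 FPKM). *Fpr1* (ENSMUSG00000045551), on the reverse strand at chr17:17876471-17883940, had 58.8 FPKM from 1228 fragments (interval, 55.6 to 62.1 FPKM). *Fpr1* was thus 0.497 of *Fpr2* (interval, 0.464 to 0.532), and 0.508 in fragments not divided by length. The other members of the family were at or near 0. *Fpr3* had 0.400 FPKM from 8 fragments, and *Fpr-rs3*, *Fpr-rs4*, *Fpr-rs6* and *Fpr-rs7* are listed at 0, which by a limit of 3 fragments allows up to 0.184, 0.196, 0.186 and 0.187 FPKM.

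The level of *Fpr2* carries more doubt than its interval shows. Of 1295 distinct runs of 50 bases in its transcripts, 408, or 31.5%, occur in other genes, mainly the nearby pseudogene *Gm5966* and *Fpr3*, whereas for *Fpr1* it was 1 of 1275. Both annotated entries of *Gm5966* are listed at 0. How the counting treated fragments that fit several genes is not given in the sources used here. In addition, 48 of the 1296 exon bases of *Fpr2* are shared with an exon of *Fpr3*. For *Ccr1*, *Cxcr3*, *Cxcr4*, *C5ar1* and *Ltb4r1* no run of 50 bases was found in another gene, and for *Cxcr2* 6.68% of the runs were.

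FPR2 also answers to endogenous ligands, whose genes had very unequal levels. *Camp*, encoding the cathelicidin that acts on FPR2 and a protein of neutrophil granules, had 3872 FPKM, and *Anxa1*, encoding annexin A1, had 512 FPKM, a value given without an interval because its multiple was not whole. *Saa3*, encoding a serum amyloid A, had 0.267 FPKM. Of the 7 ligand genes and synthesis enzymes listed for the non-chemokine receptors, 5 were detected, with a median of 75.8 FPKM.

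*C5ar1* (ENSMUSG00000049130), on the reverse strand at chr7:16246743-16259540, had 48.5 FPKM from 1968 fragments (interval, 46.4 to 50.7 FPKM). It could not be told apart from *Ccr1* in level, as the ratio of 1.04 has an interval of 0.974 to 1.10. Its neighbor *C5ar2*, whose product binds C5a without the usual G protein coupling, had 5.53 FPKM, and *C5ar1* was 8.77 times as high (interval, 7.78 to 9.91). *C3ar1*, the receptor gene for the related fragment C3a, had 0.868 FPKM from 59 fragments. *Hc*, the mouse gene of complement C5, a protein made largely in the liver, had 0.0910 FPKM from 9 fragments.

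*Ltb4r1* (ENSMUSG00000046908), the high-affinity receptor gene for leukotriene B4, had 101.9 FPKM from 2242 fragments (interval, 97.8 to 106 FPKM). It lies on the forward strand at chr14:55765962-55768494. Its interval overlaps that of *Cxcr2*, although the interval of their ratio, 1.07 for *Cxcr2* over *Ltb4r1*, runs from 1.02 to 1.12. The low-affinity receptor gene *Ltb4r2* starts 4.53 kb upstream and had 0.205 FPKM from 12 fragments. The pair thus differed 497-fold (interval, 284 to 964), and 187-fold in fragments not divided by length. In addition, 1 annotated transcript of *Ltb4r2* retains an intron and lengthens the exon total by which its level was divided. All 3 genes listed for the synthesis of leukotriene B4 were expressed. *Alox5ap*, whose product presents arachidonic acid to 5-lipoxygenase, had 159.6 FPKM, *Lta4h*, the hydrolase that completes the lipid, 75.8 FPKM and *Alox5*, the 5-lipoxygenase gene, 52.3 FPKM.

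The order of the 10 levels was *Cxcr4*, *Fpr2*, *Cxcr2*, *Ltb4r1*, *Fpr1*, *C5ar1*, *Ccr1*, *Ccr2*, *Cx3cr1* and *Cxcr3*. The 4 highest held 68.2% of the summed FPKM of the 10, and *Cxcr4* alone held 20.6%. Of their summed fragments *Cxcr4* held 16.1%, below *Cxcr2* with 20.8% and *Ccr2* with 17.9%. Of the 9 pairs of neighbors in this order, only *C5ar1* and *Ccr1* had a ratio whose interval held 1. Counting error is not the spread between mice, so the closeness of other neighbors, such as *Fpr2* and *Cxcr2* with a ratio of 1.08, has no replicate check. The largest steps lay between *Ltb4r1* and *Fpr1*, with a ratio of 1.73, between *Ccr2* and *Cx3cr1*, with 2.39, and between *Cx3cr1* and *Cxcr3*, with 3.09. Length played a part in the order, as exon totals ran from 1296 bases for *Fpr2* to 6760 for *Ccr2*. By fragments alone *Cxcr2* came first, then *Ccr2* and *Cxcr4*, and only *Cxcr3* kept its rank.

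**Figure D4:**
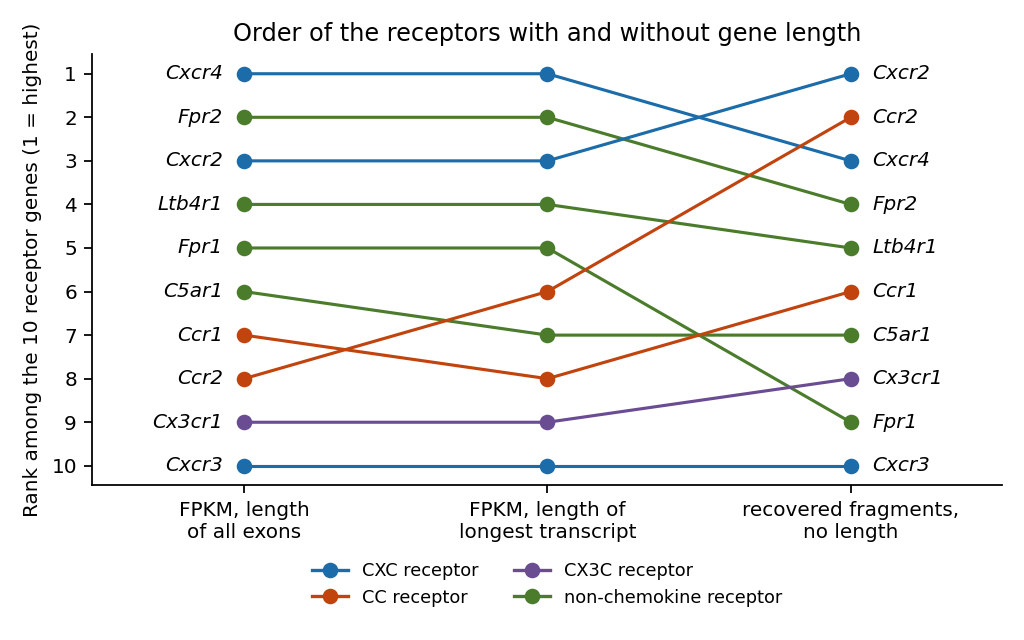
Rank of each receptor gene (1 is the highest) by FPKM with the length of all exons, by FPKM with the length of the longest transcript and by recovered fragments without length, 1 library. *Ccr2* moves from rank 8 to 6 and to 2, and *Cxcr3* is at rank 10 in each column.

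The rest of the receptor family was measured at lower levels. Of 12 other chemokine receptor genes, 7 were detected, or 58.3%, near the 46.8% of protein-coding genes, with a median of 1.48 FPKM. The highest were *Ccr7*, which guides lymphocytes and dendritic cells to lymph nodes, at 14.3 FPKM, *Ccr3* at 13.2 FPKM and *Cxcr5*, the follicle receptor of B cells, at 6.90 FPKM. Of 5 genes listed as atypical receptors, most of whose products bind chemokines without G protein signaling, *Ccrl2* had 13.6 and *Ackr1* 13.2 FPKM. The others were below 1 FPKM. Of 15 further chemoattractant receptor genes 6 were detected, or 40%, also near that share. They were led by *S1pr4* at 41.0, *Ptafr*, the platelet-activating factor receptor, at 13.7 and *S1pr1*, the egress receptor of lymphocytes, at 9.82 FPKM. None of these 32 genes reached the median of the 10 receptors, and 8 lay above *Cxcr3*. The 10 were chosen with earlier results of these data known, so the gap describes the choice as much as the family.

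**Figure D5:**
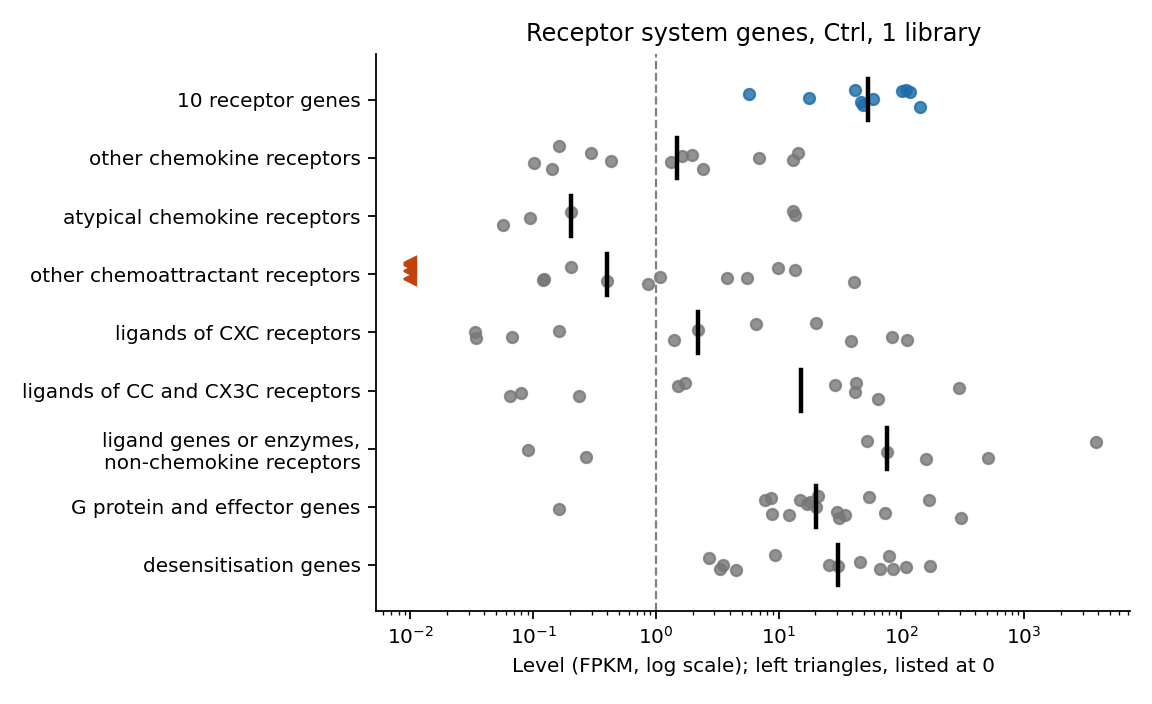
Level in FPKM (log axis) of the genes of each list, 1 library; each point is a gene, black bars are medians, the dashed line is 1 FPKM, and triangles at the left edge are genes listed at 0. The 10 receptor genes have a median of 53.6 FPKM, and none of the genes of the other 3 receptor lists lies beyond it.

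Of the signaling genes below the receptors, 16 of 17 G protein and effector genes were detected, beside 46.8% of protein-coding genes. *Gnai2*, encoding the main Gi subunit of leukocytes, had 307 FPKM and *Gnai3* 73.6 FPKM, while *Gnai1* had 0.162 FPKM. *Gnb2*, a beta subunit gene, had 168 FPKM. *Gna15*, whose product can couple C5a and formyl peptide receptors to phospholipase C, had 17.0 FPKM and *Plcb2*, encoding that enzyme, 34.5 FPKM. Of the listed genes on the path from G protein beta and gamma subunits to RAC, *Prex1* had 30.9 FPKM, *Dock2* 30.0 FPKM and *Elmo1* 7.71 FPKM. With the longest transcript of each gene as its length they had 48.5, 53.5 and 17.7 FPKM, so the order of *Prex1* and *Dock2* rests on length.

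All 13 genes listed for the silencing of these receptors were detected, beside 46.8% of protein-coding genes, with a median of 30.5 FPKM. *Grk2*, encoding a kinase that marks active receptors, had 170.1 FPKM and *Grk6* 86.1 FPKM, while *Grk3* had 4.53 FPKM. *Arrb2*, encoding the arrestin that uncouples them, had 109 FPKM and *Arrb1* 46.4 FPKM. Of the RGS genes, whose products switch the G proteins off, *Rgs19* had 79.9 FPKM, *Rgs2* 67.7 FPKM and *Rgs14* 30.5 FPKM, and *Rgs16* was the lowest at 2.71 FPKM.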

How the data were processed

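c-kit+ BM cells were sorted and a library of their total RNA was sequenced (Illumina HiSeq). The values deposited by the authors are FPKM, fragments scaled by gene length and library total, for 54532 genes in 1 Ctrl library. The submitters' processing notes name HISAT2 2.0.5, featureCounts 1.5.0-p3 and build mm10. The annotation, strandedness and treatment of fragments that fit several genes are not given in the sources used here.

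Names, exon lengths and coordinates came from GENCODE M21 on GRCm38, which lacked 37 identifiers, and promoters from RefSeq on GRCm38.p6. FPKM values times exon length were whole multiples of a common step, within 0.01, for 96.4% of 21313 genes above 0. The rounded multiples were taken as fragments. Genes with a whole multiple hold 15899824 fragments, and all genes 17113323, while the step implies a library total of 15783891. The multiples of other genes are approximate. The recovery was also run on simulated data, where exact recovery was scored only on genes of correct length. That simulation does not bear on why the recovered fragments exceed the total from the step. Levels of single genes were given 95% Wilson intervals, and ratios the exact Clopper-Pearson interval of the fragment split. A gene was called detected at 1 FPKM. No test between groups was possible with 1 library. Of the other chemokine receptors, 1 gene is not reported here. The members, the other 19 lists of genes, the motifs and the ratios were chosen with earlier results of these data known. The text names the members, the 3 highest genes of a list and the cluster neighbors of a member by rule. Other ligand, marker and signaling genes were named after their values were seen. Alternatives were other detection minimums, library totals and gene lengths, fragments without length, and a pseudocount of 1 FPKM. The software was scipy 1.17.1, pandas 2.3.3, numpy 2.4.6 and, for plots, matplotlib 3.10.9, under Python 3.11.15.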

Additional observations from a re-analysis of the deposited data

How the results depend on the processing

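No paired analysis was possible because there is a single library. Apart from those added after seeing the data, 13 of 21 alternatives left the value in its interval or, for counts, within 1.5 times. The 13 include the share of the highest gene in fragments, 20.8%, but there the highest gene was *Cxcr2*, and *Cxcr4* held 16.1%. They also include the median of the receptors at or above 1 FPKM, which could not differ because all 10 passed. The ratio of *Cxcr2* to *Cxcr4*, 0.768, was 1.29 in fragments not divided by length. The ratio of *Ccr2* to *Ccr1*, 0.902, was 2.15 in fragments and 1.06 with the longest transcript, since *Ccr2* has the longer exon total and its longest transcript covers 5728 of 6760 exon bases, that of *Ccr1* all 2833. Chosen after seeing the data, the same 2 alternatives took the ratio of *Cxcr4* to *Cxcl12* from 21.6 to 4.78 and 14.9, and that to *Kit* from 19.8 to 4.02 and 11.7. With the longest transcript the ratio of *Fpr1* to *Fpr2*, 0.497, was 0.434, and the share of the highest gene went from 20.6% to 19.9%. The number of other chemokine receptor genes detected, 7, was 12 at 0.1 FPKM and 2 at 10 FPKM, while that of the 10 receptors was 10 and 9. Their median, 53.6 FPKM, was 125 in TPM, a rescaling common to all genes. Depth limits genes of few fragments, such as *Ccr1l1* with 3.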
